A study of Mus musculus with 6 samples.

Results

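The transcripts of 10 genes of the Notch pathway were followed in cultured mouse heart muscle cells: the receptors Notch1, Notch2, Notch3 and Notch4, the ligands Jag1, Jag2 and Dll4, and the nuclear factors Hey1, Hey2 and Heyl. They were chosen by name, with earlier results of these data known. All 10 were found among the 56691 gene rows and had enough counts to be tested. The cells were primary cardiomyocytes of neonatal mice, given an adenovirus (serotype 5) built with the promoter of cardiac troponin T (cTNT), which is active in cardiomyocytes. In 3 libraries the virus carried HMGB2, a chromatin protein that bends DNA (HMGB2 1, 2 and 3). In the other 3 it was the empty vector, so all cells had received virus and none were uninfected (vector 1, 2 and 3). The sources used here give neither strain, age in days, virus dose nor time of collection. They do not say whether replicates were separate cultures or animals, so the p-values reflect sample-to-sample spread alone, and that spread may be technical.

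Notch receptors sit in the cell membrane and are activated by ligands of the Jagged and Delta-like families on a neighbouring cell. Binding leads to cleavage by ADAM proteases and by gamma-secretase, and the freed intracellular part joins the DNA-binding protein RBPJ and switches on genes such as those of the HES and HEY repressors. In the mouse heart, Notch1, Notch4 and Dll4 are known mainly from endothelium and endocardium and Notch3 from smooth muscle and pericytes, Hey1 marks atrial and Hey2 ventricular muscle of the embryo, and the pathway acts in trabeculation and in growth of immature cardiomyocytes.

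Libraries held 14497676 to 16618365 counts with HMGB2 and 12498215 to 14101385 with the vector. Hmgb2 itself stood at 175, 196 and 182 CPM in HMGB2 libraries, against 46.8, 44.8 and 36.3 CPM in vector libraries (CPM corrects each count for the normalised size of its library). In a principal component analysis of 500 genes, the first component (77.4% of variance) separated the groups, and the second (14.3%) set HMGB2 3 (10.5) and vector 1 (14.2) apart from the other libraries (-8.47 to -4.37). These 2 libraries matter for Notch1, Notch2 and Notch3 below. Differences were tested with edgeR's quasi-likelihood test over 15429 genes, with Benjamini-Hochberg adjusted p under 0.05 as the threshold, which 14.4% of genes passed as higher and 10.8% as lower with HMGB2.

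The promoters of the members that RefSeq gives for GRCm38.p6 (250 bases before to 50 after the start) covered 8 of the 10 genes, and no window was given for Hey1 or Heyl. They are shown for Hey2, the HEY gene with RBPJ core letters beside its start, and for Notch2 and Jag1, the receptor and the ligand that fell. Each stretch runs 5′ to 3′ on the gene's strand. Capitals mark TGGGAA, the core of the RBPJ motif, on either strand in Hey2 (chr10:30842781-30843033, minus strand), and CACGCG, an E-box-like motif that HEY proteins can bind, on either strand in Notch2 (chr3:98013288-98013526, plus strand) and Jag1 (chr2:137116645-137116770, minus strand).
Hey2: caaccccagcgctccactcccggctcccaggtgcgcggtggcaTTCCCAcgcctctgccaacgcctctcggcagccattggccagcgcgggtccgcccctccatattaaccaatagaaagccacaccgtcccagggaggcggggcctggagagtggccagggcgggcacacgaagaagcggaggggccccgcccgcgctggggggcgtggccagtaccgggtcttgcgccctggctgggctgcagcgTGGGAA
Notch2: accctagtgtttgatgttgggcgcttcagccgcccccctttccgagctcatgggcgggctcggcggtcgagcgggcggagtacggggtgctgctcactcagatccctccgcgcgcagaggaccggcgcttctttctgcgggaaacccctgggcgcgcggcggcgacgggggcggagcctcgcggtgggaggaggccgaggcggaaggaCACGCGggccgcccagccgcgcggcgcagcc
Jag1: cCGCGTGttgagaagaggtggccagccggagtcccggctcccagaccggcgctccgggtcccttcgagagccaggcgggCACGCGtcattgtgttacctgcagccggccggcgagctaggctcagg
TGGGAA began at -207 (as its reverse complement) and at -3 from the RefSeq start of Hey2, and was in none of the windows of the other 7 genes. It occurs in 25.6% of all 32851 promoter windows of this length. CACGCG was found in the windows of Notch2 (-42), Jag1 (-171, and -249 as its reverse complement), Dll4 (-195) and Jag2 (19), against 9.27% of all windows. The palindrome CACGTG, also an E-box, was in 7.15% of all windows and in none of the 8. The motifs searched do not overlap each other in these windows, and a match is only a description of the letters.

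Per transcript length, Notch1 and Jag1 were the most abundant members. By FPKM (counts scaled by exon length and library total, as deposited), vector libraries had means of 17.5 ± 3.84 for Notch1, 14.75 ± 0.908 for Jag1, 8.80 ± 0.402 for Notch4, 7.08 ± 1.09 for Notch3 and 5.41 ± 0.69 for Notch2 (SD, n = 3). Dll4 followed at 2.35 ± 0.154 FPKM, Jag2 at 2.22 ± 0.0322, Hey1 at 2.10 ± 0.145, Heyl at 1.42 ± 0.203 and Hey2 at 1.38 ± 0.154. Neighbours in this order whose libraries overlapped were Notch1 and Jag1, Notch3 and Notch2, Dll4 and Jag2, Jag2 and Hey1, and Heyl and Hey2. With HMGB2 the order of the receptors was kept at 15.5 ± 3.06 FPKM for Notch1, 7.66 ± 0.222 for Notch4, 5.96 ± 0.76 for Notch3 and 3.99 ± 0.70 for Notch2, and Jag1 stood at 12.25 ± 0.515 FPKM. Among the HEY genes, Hey1 had the highest mean FPKM of the 3 with the vector and the lowest with HMGB2 (0.913 ± 0.174), below Heyl (1.003 ± 0.0493) and Hey2 (1.22 ± 0.154), although the HMGB2 libraries of Hey1 and Heyl overlapped. The length behind the FPKM of Notch1 (14232 bases) is the sum of all annotated exons, so a shorter main transcript would have a higher level per length.

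**Figure D1:**
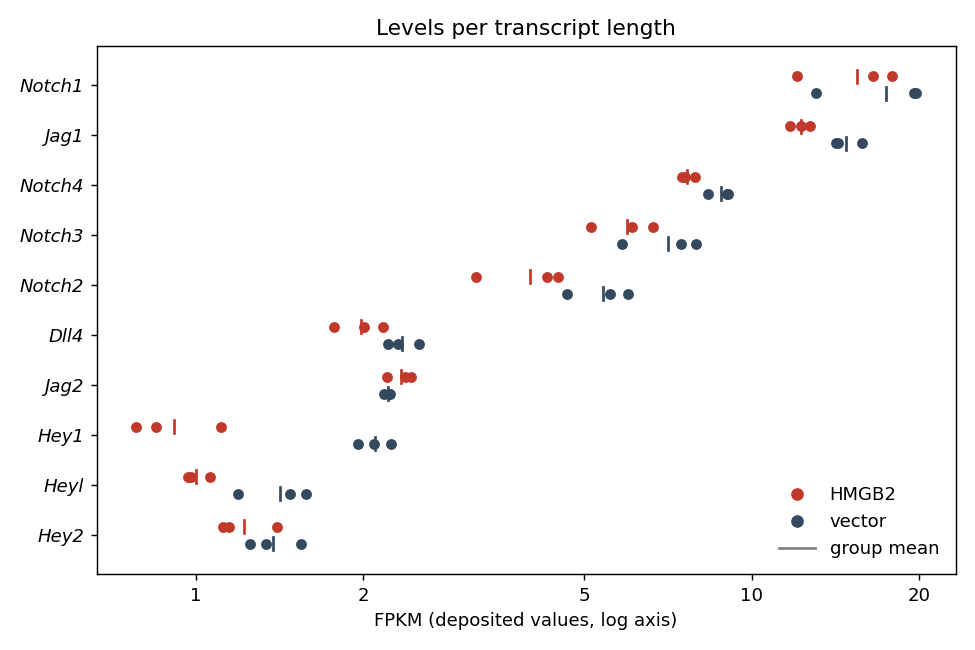
Deposited FPKM of the 10 members on a log axis, with 1 point per library, HMGB2 above vector for each gene and a bar at the group mean. Notch1 and Jag1 lie highest in both groups, and Hey1 is the highest HEY gene with the vector but not with HMGB2.

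With HMGB2, 4 of the 10 members were lower and 0 were higher, against 10.8% and 14.4% of all genes tested (25.2% in either direction). Those that fell were Hey1, Heyl, Jag1 and Notch2, and 6 did not pass the threshold. At an unadjusted p under 0.05, 5 were lower and 0 higher in edgeR, where 16.9% and 19.6% of all genes were. DESeq2 called 3 lower and 0 higher, where it called 8.09% and 10.2% of all genes, and limma on log2(FPKM + 0.1) called 1 lower and 0 higher, against 4.77% and 8.53% of all genes. The log2 fold change was negative for 9 of 10, with a median of -0.27, while that of all genes tested was -0.0022. All 3 HMGB2 libraries lay below all 3 vector libraries for 6 members, where 18.9% of genes tested lay so, 21.6% lay the other way and 40.5% had no overlap in either direction. The fall of Hey1 was called with each library left out. The number of members called lower, however, was 1 without HMGB2 1, HMGB2 2, HMGB2 3 or vector 3. It was 2 without vector 2 and 5 without vector 1. Over all genes, 866 to 1960 were lower with 1 library left out, against 1662 in the main fit.

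**Figure D2:**
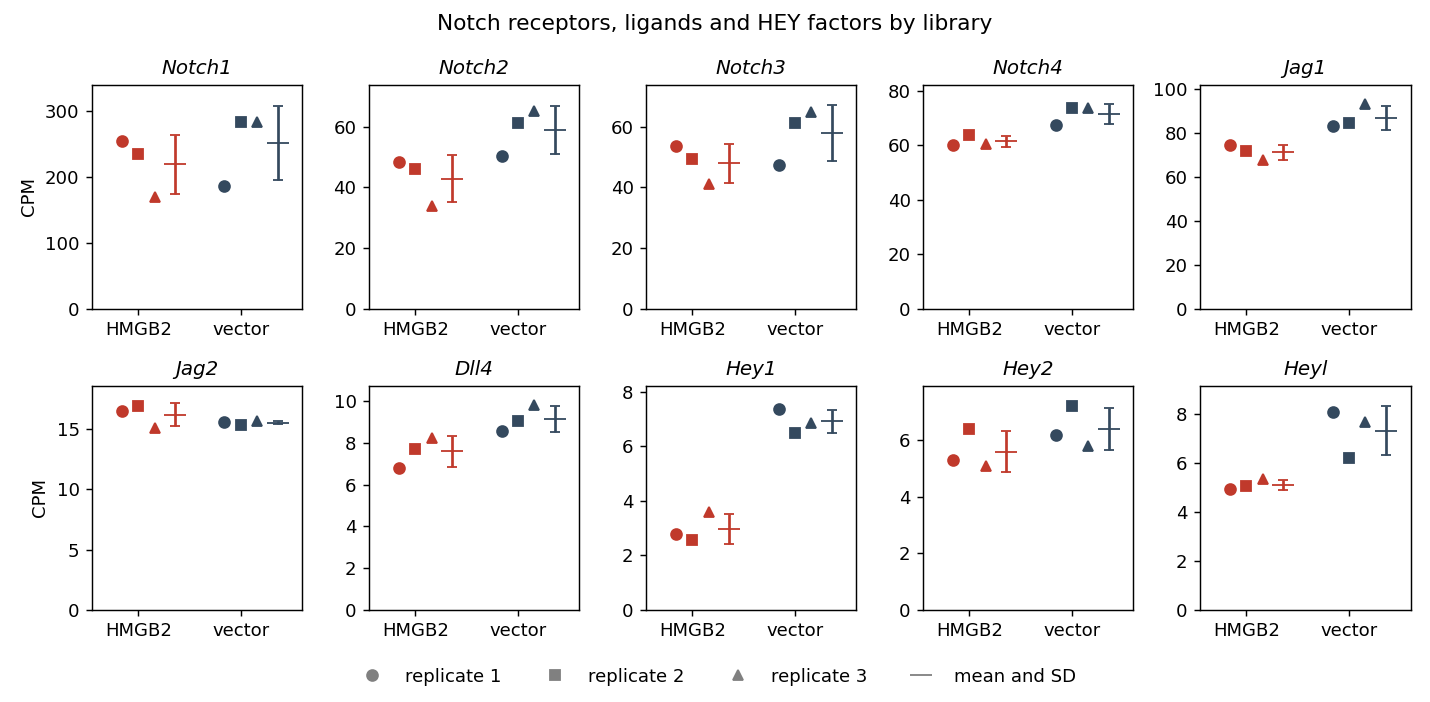
CPM of each member by library, with HMGB2 left of vector, 1 symbol per replicate number and the mean with its SD (n = 3 each), on axes that start at 0. Hey1, Heyl, Jag1, Notch2, Notch4 and Dll4 have no overlap between groups, and HMGB2 3 and vector 1 are the lowest libraries of their group for Notch1, Notch2 and Notch3.

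Hey1 showed the largest change of the members. This HEY repressor (ENSMUSG00000040289, GRCm38 chromosome 3, 8663359 to 8667256, minus strand) had 2.77, 2.55 and 3.58 CPM in HMGB2 1, 2 and 3, against 7.38, 6.50 and 6.87 CPM in vector 1, 2 and 3. These came from 46, 37 and 59 counts with HMGB2 and 92, 89 and 96 counts with the vector, so the groups were well apart although the gene was lowly expressed. It was 2.32-fold lower, with a mean of 2.96 ± 0.540 CPM in HMGB2 libraries and 6.92 ± 0.440 CPM in vector libraries (SD, n = 3 each) and a log2 fold change of -1.21 (SE 0.18, adjusted p = 0.001, edgeR). With 1 library left out, the log2 fold change lay between -1.37 and -1.12, with an edgeR adjusted p of at most 0.0077. It was -0.70 on the log2(FPKM + 1) scale, where the added 1 is close to the gene's own level, and still passed.

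Heyl, known from vascular smooth muscle (ENSMUSG00000032744, chromosome 4, 123233556 to 123249875, plus strand), fell 1.43-fold. Its HMGB2 libraries had 4.93, 5.03 and 5.33 CPM, against 8.10, 6.21 and 7.66 CPM in vector libraries, so that the lowest vector library was still above the highest HMGB2 library. The log2 fold change was -0.52 (SE 0.15, adjusted p = 0.0337, edgeR). The call was lost without HMGB2 1 (adjusted p = 0.114), HMGB2 2 (0.0999), HMGB2 3 (0.0572), vector 1 (0.0788) or vector 3 (0.102), and with DESeq2 (0.0952).

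Hey2, the HEY gene of ventricular muscle (ENSMUSG00000019789, chromosome 10, 30832359 to 30842801, minus strand), did not pass the threshold. It had 5.29, 6.41 and 5.09 CPM in HMGB2 libraries and 6.17, 7.23 and 5.80 CPM in vector libraries, and the groups overlapped. The log2 fold change was -0.20 (SE 0.16, adjusted p = 0.416, edgeR). The balance between the HEY genes could be compared within each library. The FPKM of Hey1 over that of Hey2 was 0.739, 0.557 and 0.991 in HMGB2 libraries, against 1.68, 1.26 and 1.67 in vector libraries. By FPKM, Hey2 thus exceeded Hey1 in each HMGB2 library and Hey1 exceeded Hey2 in each vector library. In HMGB2 3 the 2 genes were nearly equal (1.11 FPKM for Hey1, 1.12 for Hey2). The order also depends on the scaling by exon length. By CPM, Hey1 was above Hey2 in vector 1 and vector 3 but below it in vector 2 (6.50 against 7.23). The difference in log2 ratio was -1.04, and the two-sided exact permutation p of 0.1 is the smallest that 3 against 3 samples can give (0.175 adjusted over 7 ratios). Hey1 over Heyl was 0.876, 0.796 and 1.05 with HMGB2, against 1.42, 1.65 and 1.41 with the vector (exact permutation p = 0.1, 0.175 adjusted), also without overlap. For Heyl over Hey2 the groups overlapped (0.83 ± 0.124 with HMGB2, 1.04 ± 0.239 with the vector, SD, n = 3 each, exact permutation p = 0.3). As a share of the summed FPKM of the 3 genes, Hey1 made up 28.6%, 24.7% and 33.7% in HMGB2 libraries, against 43.5%, 41.7% and 43.4% in vector libraries.

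Of the ligands, Jag1 fell. This Jagged ligand (ENSMUSG00000027276, chromosome 2, 137081456 to 137116644, minus strand) had 74.3, 71.5 and 67.4 CPM in HMGB2 libraries, against 82.8, 84.6 and 92.9 CPM in vector libraries. All HMGB2 libraries were lower than all vector libraries, and the fall was 1.22-fold (log2 fold change -0.29 ± 0.08 SE, adjusted p = 0.023 in edgeR). The call was lost without HMGB2 1 (adjusted p = 0.0578), HMGB2 2 (0.0821), HMGB2 3 (0.0691), vector 2 (0.0584) or vector 3 (0.0895).

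Jag2, its paralogue (ENSMUSG00000002799, chromosome 12, 112907819 to 112929776, minus strand), was the only member with a positive log2 fold change (0.06, SE 0.10, adjusted p = 0.711, edgeR). It had 16.53, 16.97 and 15.15 CPM in HMGB2 libraries and 15.6, 15.4 and 15.7 CPM in vector libraries, with overlap. The FPKM of Jag1 over Jag2 was 5.36, 5.02 and 5.31 with HMGB2, against 6.33, 6.55 and 7.09 with the vector (exact permutation p = 0.1, 0.175 adjusted), with no overlap.

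Dll4, the Delta-like ligand of arterial endothelium (ENSMUSG00000027314, chromosome 2, 119325784 to 119335962, plus strand), had 6.79, 7.72 and 8.24 CPM in HMGB2 libraries, against 8.58, 9.06 and 9.80 CPM in vector libraries. The groups did not overlap, yet the highest HMGB2 library was close to the lowest vector library. The log2 fold change of -0.27 (SE 0.13) did not pass (adjusted p = 0.169, edgeR). Dll4 over Jag1 stood at 0.163 ± 0.0232 with HMGB2 and 0.159 ± 0.00261 with the vector (FPKM ratio, SD, n = 3 each, exact permutation p = 0.8).

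Among the receptors, Notch2 fell. Notch2, a receptor found in many tissues (ENSMUSG00000027878, chromosome 3, 98013527 to 98150361, plus strand), had 48.3, 46.2 and 33.9 CPM in HMGB2 libraries, against 50.2, 61.1 and 65.3 CPM in vector libraries. HMGB2 1 was close to vector 1, and the other libraries lay further apart. It was 1.38-fold lower (log2 fold change -0.46 ± 0.14 SE, adjusted p = 0.0425 in edgeR). The call was lost without HMGB2 1 (adjusted p = 0.0544), HMGB2 2 (0.0763), HMGB2 3 (0.0875), vector 2 (0.13) or vector 3 (0.142). Notch2 over Notch1, by FPKM, was 0.251, 0.26 and 0.265 in HMGB2 libraries, against 0.356, 0.284 and 0.303 in vector libraries (exact permutation p = 0.1, 0.175 adjusted), with no overlap.

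Notch1, the main receptor of endocardium (ENSMUSG00000026923, chromosome 2, 26457903 to 26516663, minus strand), did not pass the threshold. Its CPM was 254.6, 235.0 and 169.0 in HMGB2 libraries and 186.2, 283.4 and 284.2 in vector libraries. HMGB2 3 and vector 1 were far below the others, and the groups overlapped through vector 1. The log2 fold change was -0.20 (SE 0.19, adjusted p = 0.5, edgeR).

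Notch3, the receptor of mural cells (ENSMUSG00000038146, chromosome 17, 32120820 to 32166852, minus strand), had 53.6, 49.3 and 41.0 CPM in HMGB2 libraries and 47.4, 61.2 and 64.8 CPM in vector libraries. It overlapped in the same way through vector 1 (log2 fold change -0.27 ± 0.13 SE, adjusted p = 0.179 in edgeR), and it passed without vector 1 (-0.39, adjusted p = 0.0147). It did not pass without HMGB2 1 (0.163), HMGB2 2 (0.28), HMGB2 3 (0.415), vector 2 (0.38) or vector 3 (0.444).

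Notch4, the endothelial receptor (ENSMUSG00000015468, chromosome 17, 34564268 to 34588503, plus strand), had 60.2, 63.7 and 60.4 CPM in HMGB2 libraries, against 67.4, 73.9 and 73.6 CPM in vector libraries. The groups did not overlap, and the log2 fold change of -0.22 (SE 0.07) was just short of the threshold (adjusted p = 0.0528, edgeR). Without vector 1 it passed (-0.26, adjusted p = 0.0191, edgeR). It did not pass without HMGB2 1 (0.19), HMGB2 2 (0.111), HMGB2 3 (0.124), vector 2 (0.162) or vector 3 (0.151), nor with DESeq2 (0.0995). The share of Notch1 in the summed FPKM of the 4 receptors was 46.5% ± 3.09 with HMGB2 and 44.8% ± 3.34 with the vector (SD, n = 3 each).

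The spread of the receptors followed HMGB2 3 and vector 1, set apart by the second component. HMGB2 3 was lower than the mean of HMGB2 1 and 2 by 0.53 for Notch1, 0.48 for Notch2 and 0.33 for Notch3 on the log2 CPM scale, and vector 1 was lower than the mean of vector 2 and 3 by 0.61, 0.33 and 0.41. These genes have long exon sums of 14232, 10782 and 8089 bases. Hey1, the shortest member at 3265 bases, was instead higher in HMGB2 3 (by 0.42) and vector 1 (by 0.14) than in the others of its group. Notch4, with 8061 bases, differed by only -0.04 and -0.13. Why these libraries differ was not tested.

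**Figure D3:**
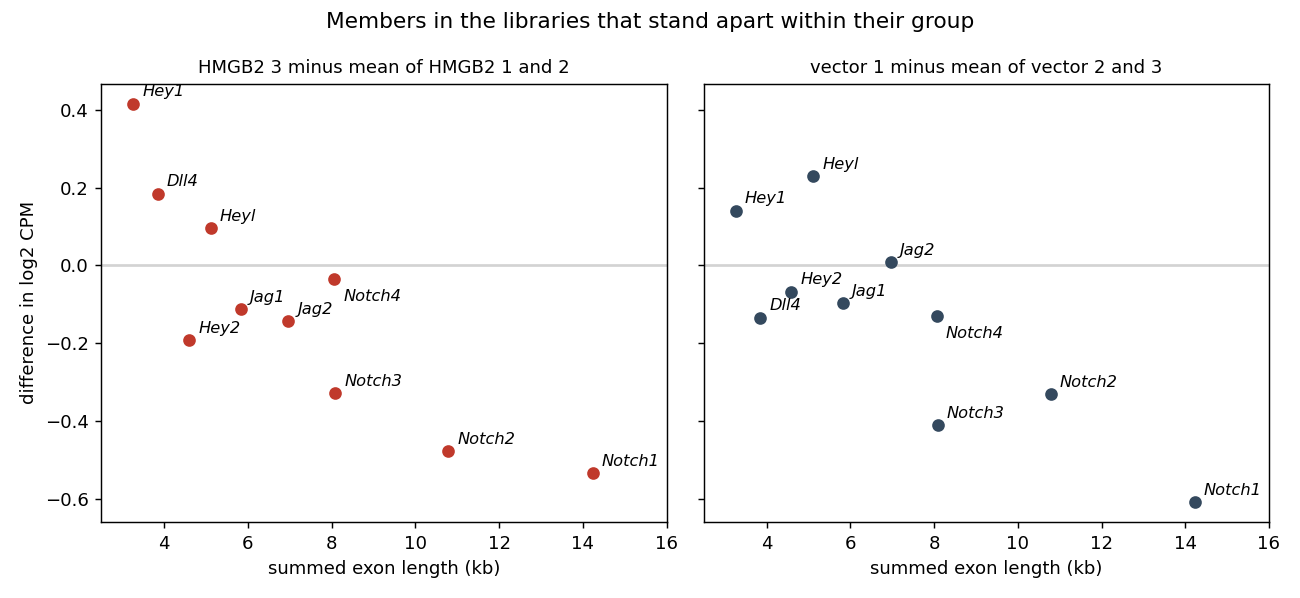
Difference in log2 CPM of HMGB2 3 from HMGB2 1 and 2 (left) and of vector 1 from vector 2 and 3 (right) for the 10 members, against summed exon length in kilobases. The 3 members lowest in both panels are Notch1, Notch2 and Notch3, and Hey1 is above 0 in both.

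The log2 ratios of the receptors were negative in both sets of libraries when these were compared separately, although only Notch2 passed the test over all 6 libraries. Between HMGB2 3 and vector 1, the log2 ratio of CPM was -0.14 for Notch1, -0.56 for Notch2, -0.21 for Notch3 and -0.16 for Notch4. Between HMGB2 1 and 2 and vector 2 and 3 it was -0.21, -0.42, -0.29 and -0.25 for the same genes. Hey1 had -1.04 in the first set and -1.33 in the second, and Jag1 had -0.30 and -0.28. Jag2 had -0.05 and 0.11, and Dll4 -0.06 and -0.38, so for Dll4 most of the difference lay in the second set. The first set has 1 library on each side and no replicate check. Both sets were drawn from the second component of these same data and not from a label. The shared sign is therefore a description only.

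A second edgeR fit gave vector 1 and HMGB2 3 a term of their own. The term is in no label and was chosen from the second component of these same libraries. It takes out the spread it was chosen from. The p-values of this fit, and those without both libraries, are therefore no independent support. In this fit all 4 receptors passed as lower. The log2 fold changes were -0.19 for Notch1 (SE 0.04, adjusted p = 2.83e-05, edgeR), -0.46 for Notch2 (2.95e-08), -0.27 for Notch3 (0.000237) and -0.22 for Notch4 (0.000515). The fold changes hardly differed from those above, while the SE of Notch1 was 0.19 without the term. In that fit 7 of 10 members were lower and 0 higher, where 23% of all genes tested were lower and 24% higher. Without both of these libraries 6 members were lower and 0 higher, where 19.1% of genes were lower and 20.9% higher. Hey1 stood at -1.22 (SE 0.18) with the term, and Heyl did not pass without both libraries (-0.48, adjusted p = 0.0505).

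**Figure D4:**
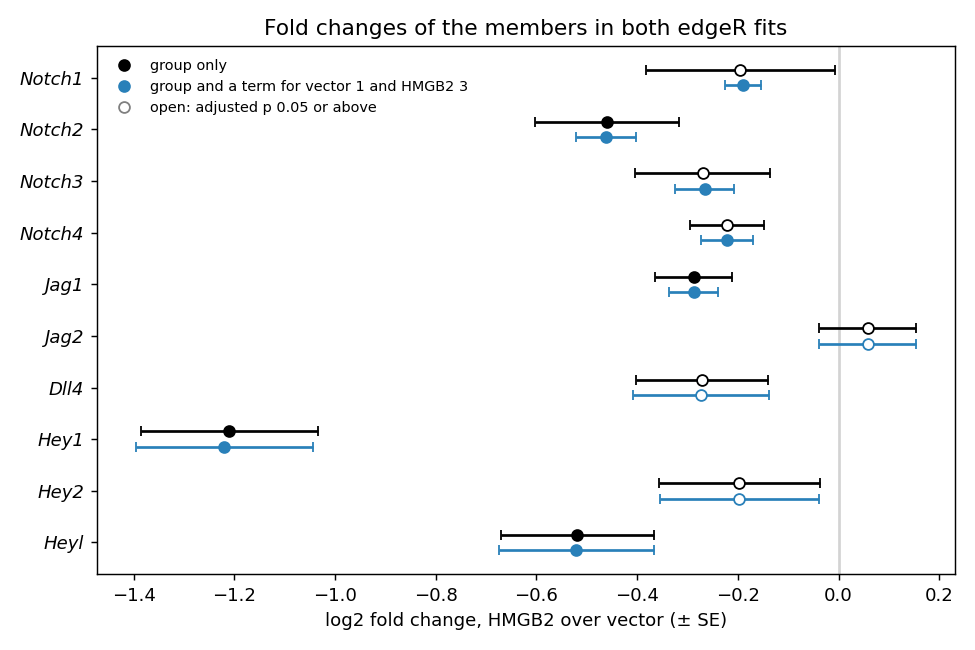
Log2 fold change of HMGB2 over vector with its SE for each member, in the fit with the group only (black) and in the fit with a term for vector 1 and HMGB2 3 (blue), with open symbols for adjusted p of 0.05 or above. The receptors keep their fold change and have smaller SEs with the term, and Hey1 lies furthest from 0 in both fits.

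Beyond the members, 61 other genes of the pathway were looked up, of which 56 were tested. With HMGB2, 2 were higher (3.57%) and 10 lower (17.9%), against 14.4% and 10.8% of all genes tested, and their median log2 fold change was -0.04. The number lower was 5 without HMGB2 1 and 6 without vector 2 or vector 3. Over all genes it was 866, 973 and 1109 in these 3 settings, against 1662 in the main fit. With the term for vector 1 and HMGB2 3, 18 pathway genes were lower and 9 higher. In that fit 23% of all genes tested were lower and 24% higher.

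Genes that fell included enzymes that modify the sugar chains of the receptors. Of 6 genes of receptor maturation, 2 fell, where 10.8% of all genes tested did. Both are Fringe glycosyltransferases, which change the response of Notch to Jagged and Delta-like ligands. Lfng had 4.63, 4.55 and 4.12 CPM in HMGB2 libraries, against 8.5, 6.87 and 7.23 CPM in vector libraries, 1.7-fold lower and with no overlap (log2 fold change -0.76 ± 0.15 SE, adjusted p = 0.00553 in edgeR). Its RefSeq promoter window holds each of the 3 motifs searched. Of the other pathway genes past the threshold, Bmp10, which rose, holds TGGGAA, and Ctbp1 and Tle1 hold CACGCG. The windows of Efnb2, Kat2b, L3mbtl3 and Numbl hold none of the motifs. No window was given for Bmp2, Mfng, Myc or Nrg1. Whether the motifs go with the changes was not tested. Mfng had 6.43, 8.14 and 6.55 CPM in HMGB2 libraries, against 9.62, 9.42 and 9.16 CPM in vector libraries (log2 fold change -0.42, adjusted p = 0.0493, edgeR). That call was lost without HMGB2 1 (0.176), HMGB2 3 (0.131), vector 1 (0.0771), vector 2 (0.122) or vector 3 (0.0975), and with DESeq2 (0.138). The third Fringe gene, Rfng, had a log2 fold change of 0.19 (SE 0.14) that did not pass.

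Of 8 genes of receptor cleavage, 0 rose and 0 fell in edgeR, also at an unadjusted p under 0.05 and with DESeq2 and limma. Over all genes tested, 14.4% rose and 10.8% fell in edgeR. The shares were 10.2% and 8.09% with DESeq2, and 8.53% and 4.77% with limma. The sheddase Adam10 stood at 382 ± 14.5 CPM with HMGB2 and 398 ± 25.4 CPM with the vector (SD, n = 3 each), and the gamma-secretase subunit Ncstn had a log2 fold change of 0.13 (adjusted p = 0.185, edgeR), which did not pass. With the term for vector 1 and HMGB2 3, 2 of the 8 were higher, Ncstn (0.01) and the presenilin Psen2 (0.0165), and 1 was lower, the sheddase Adam17 (0.026). In that fit 24% of all genes tested were higher and 23% lower, so these counts do not set the list apart. Of 6 genes of ligand endocytosis, 0 passed in edgeR, DESeq2 or limma, and 1 was higher at an unadjusted p under 0.05 (Epn2). At that unadjusted p, 19.6% of all genes tested were higher and 16.9% lower. The ubiquitin ligase Mib1 had a log2 fold change of -0.02 (SE 0.12), and Epn1, an endocytic adaptor, of 0.03 (SE 0.07). Of the 5 other ligands, Dll3 and Dner were too low to test, and none of the 3 tested passed in edgeR, DESeq2 or limma. Dll1 had a log2 fold change of 0.23 and Dlk1, a non-canonical ligand, of -0.60 (adjusted p = 0.104, edgeR), and Dlk1 and Dlk2 were lower at an unadjusted p under 0.05.

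In the nucleus, the DNA-binding partner Rbpj was at 27.9 ± 0.249 CPM with HMGB2 and 26.9 ± 3.21 CPM with the vector (SD, n = 3 each, log2 fold change 0.05, adjusted p = 0.754, edgeR). Of the 7 genes of the activation complex, 1 rose and 0 fell, with 2 lower at an unadjusted p under 0.05 and 0 lower with DESeq2. Over all genes tested, 14.4% rose and 10.8% fell, with 16.9% lower at that unadjusted p and 8.09% lower with DESeq2. Ep300, another acetyltransferase, had a log2 fold change of -0.0004 (SE 0.24). Kat2b, a histone acetyltransferase that works with the Notch intracellular part, rose 1.45-fold, at 140.5, 140.5 and 130.2 CPM in HMGB2 libraries against 94.1, 94.8 and 95.5 CPM in vector libraries (adjusted p = 0.000456, edgeR). Of 8 corepressors of RBPJ, 3 fell, where 10.8% of all genes tested did. Tle1, a Groucho-type corepressor, had 41.2, 36.6 and 35.2 CPM in HMGB2 libraries, against 52.9, 48.9 and 49.4 CPM in vector libraries (log2 fold change -0.42, adjusted p = 0.00696, edgeR). L3mbtl3, which binds RBPJ, had a log2 fold change of -0.36 (0.0133) and Ctbp1 of -0.29 (0.0402). The call of L3mbtl3 was lost without HMGB2 1 (0.0705), vector 2 (0.0608) or vector 3 (0.0509), and that of Ctbp1 without HMGB2 1 (0.159), HMGB2 2 (0.15), vector 1 (0.0599) or vector 3 (0.1).

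Numbl, a relative of the Notch inhibitor Numb, had the largest fall among the tested genes of the other pathway lists. It had 27.5, 26.3 and 26.2 CPM in HMGB2 libraries, against 50.8, 53.0 and 58.6 CPM in vector libraries, with a wide gap between groups (2.03-fold lower, log2 fold change -1.02 ± 0.08 SE, adjusted p = 3.36e-05 in edgeR). Numb itself had a log2 fold change of -0.12 (SE 0.07, adjusted p = 0.239, edgeR). Of the 7 genes tested among receptor turnover and inhibitors, Numbl was the only one past the threshold in edgeR. Over all genes tested, 10.8% fell and 14.4% rose. Itch, a ubiquitin ligase, had a log2 fold change of 0.17 (adjusted p = 0.146, edgeR) that passed with the term for vector 1 and HMGB2 3 (0.000535). In that fit 1 gene of this list was higher and 2 were lower, where 24% and 23% of all genes tested were.

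Among other target genes of Notch, Hes1 and Nrarp did not pass the threshold. Hes1, the HES repressor of many tissues, had 34.5, 33.5 and 37.4 CPM in HMGB2 libraries and 43.4, 35.1 and 32.9 CPM in vector libraries, with overlap (log2 fold change -0.08 ± 0.11 SE, adjusted p = 0.657 in edgeR). Nrarp, a feedback inhibitor, had 20.7, 22.6 and 19.6 CPM in HMGB2 libraries and 21.5, 23.7 and 21.1 CPM in vector libraries, also with overlap (-0.08, SE 0.10, adjusted p = 0.615, edgeR). Hes5 had 0 counts in all 6 libraries. Whether the difference between these genes and Hey1 exceeds error was not tested.

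Of the 5 target genes tested, 2 fell, where 10.8% of all genes tested did. Efnb2, the ephrin of arterial endothelium, had 133.5, 138.4 and 124.7 CPM in HMGB2 libraries, against 183.1, 180.1 and 192.8 CPM in vector libraries (log2 fold change -0.49 ± 0.07 SE, adjusted p = 0.00106 in edgeR), with the groups far apart. Myc fell by 0.30 on the log2 scale (adjusted p = 0.0179, edgeR), a call lost without HMGB2 1 (0.0965) or vector 2 (0.0748).

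Of 4 genes tested among the trabeculation signals downstream of endocardial Notch, 1 rose (Bmp10), 2 fell (Nrg1 and Efnb2) and Ephb4, the receptor of Efnb2, did not pass (log2 fold change 0.07, adjusted p = 0.508, edgeR). Over all genes tested, 14.4% rose and 10.8% fell. Bmp10, a growth factor of trabecular and atrial muscle, rose 2.63-fold, at 74.9, 74.7 and 63.9 CPM in HMGB2 libraries against 26.5, 29.4 and 25.4 CPM in vector libraries (log2 fold change 1.39 ± 0.10 SE, adjusted p = 1.14e-05 in edgeR). Nrg1, the neuregulin ligand made by endocardium, fell 1.46-fold, at 336.9, 322.3 and 267.5 CPM in HMGB2 libraries against 388.0, 488.2 and 480.7 CPM in vector libraries (log2 fold change -0.55 ± 0.11 SE, adjusted p = 0.00718 in edgeR). A second row of the table with the symbol Nrg1 had 0 counts in all 6 libraries. Of 3 genes that HEY factors hold down in embryonic chamber muscle, Bmp2 fell by 0.54 on the log2 scale (adjusted p = 0.043, edgeR). That call was lost without HMGB2 1 (0.106), HMGB2 2 (0.0769), HMGB2 3 (0.122), vector 2 (0.108) or vector 3 (0.146), and with DESeq2 (0.119). Nppa, the atrial natriuretic peptide, had a log2 fold change of 0.13 and Tbx2, a repressor of the atrioventricular canal, of 0.25, and neither passed.

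**Figure D5:**
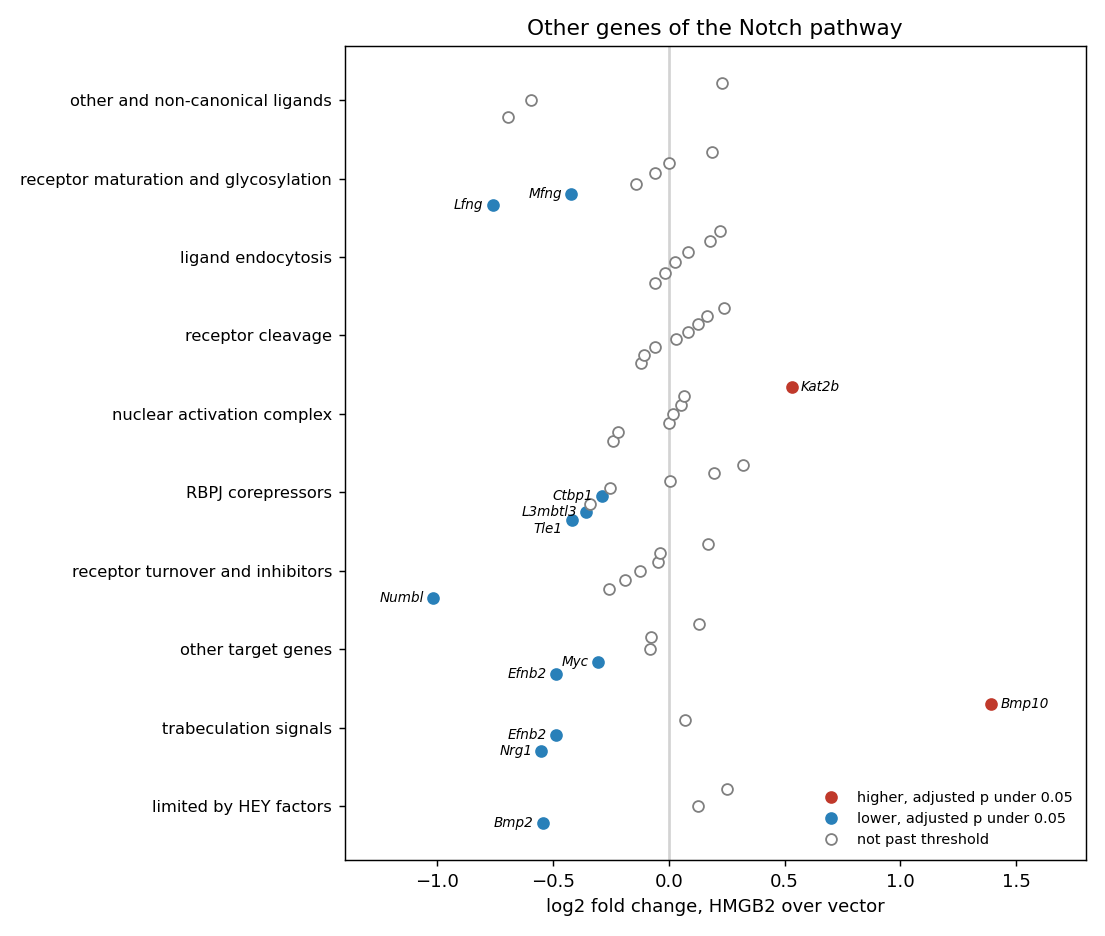
Log2 fold change of HMGB2 over vector for the tested genes of 10 other lists of the pathway, 1 point per gene, filled and named where the edgeR adjusted p was under 0.05 (Efnb2 is in 2 lists). Numbl lies lowest and Bmp10 highest, and none of the genes of receptor cleavage and ligand endocytosis is filled.

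Transcripts of several heart cell types were present beside those of cardiomyocytes. In bulk RNA, fewer cells of a type and less RNA per cell cannot be told apart. The marker counts here and below stand beside 10.8% of all genes tested lower and 14.4% higher. Of 14 endothelial markers, 4 fell and 0 rose, and their summed level was 4233 to 4477 CPM in HMGB2 libraries, against 5033 to 5212 CPM in vector libraries, without overlap. The log2 fold change was negative for 13 of the 14 and positive for 1. Eng, one of the 2 most abundant, had a log2 fold change of -0.31 (adjusted p = 0.0182, edgeR), and Cdh5 of -0.14 (0.362). Beside these stood -0.20 for Notch1, -0.22 for Notch4, -0.27 for Dll4 and -0.29 for Jag1. None of the 14 was at 0. Of 3 endocardial markers tested, 1 fell (457 to 480 CPM summed with HMGB2, 517 to 568 CPM with the vector), with Plvap at -0.29 and Npr3 at -0.03 on the log2 scale. Cytl1, the fourth, had 0 counts in 5 of 6 libraries.

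Mural markers overlapped between groups in their sum (1462 to 1500 CPM with HMGB2, 1463 to 1494 CPM with the vector). Most of that sum was Acta2, with a mean of 879 CPM with HMGB2 and 873 CPM with the vector. The 9 markers went both ways. On the log2 scale, 1 was higher (Cnn1 at 0.68) and 2 were lower (Kcnj8 at -0.82 and Tagln at -0.51). Acta2 stood at 0.009 and Pdgfrb at -0.26, beside -0.52 for Heyl and -0.27 for Notch3. Fibroblast markers summed to 4484 to 4594 CPM with HMGB2, against 5032 to 5140 CPM with the vector, and 2 of 9 fell, with Col1a1 at -0.09 and Col1a2 at -0.13. Macrophage markers were low (25.6 to 32.2 CPM with HMGB2, 35.6 to 42.9 CPM with the vector, 1 of 7 lower), with Cd68 at -0.32 and Mrc1 at -0.28. Epicardial markers overlapped and summed to 124 to 130.1 CPM with HMGB2 and 122 to 130.8 CPM with the vector (1 of 5 lower), with Msln at 0.02 and Tbx18 at 0.04.

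The defining transcripts of cardiomyocytes were abundant, as the label says, and higher with HMGB2. Their 9 markers summed to 14910 to 18130 CPM in HMGB2 libraries, against 8701 to 11080 CPM in vector libraries, and 7 of 9 rose, with log2 fold changes of 0.77 for Myh6 and 0.84 for Tnnt2. Atrial markers rose in 3 of 5 (0.73 for Myl7, 0.13 for Nppa, which did not pass) and ventricular markers in 4 of 4 (0.56 for Myl2, 0.33 for Myl3), beside -1.21 for Hey1 and -0.20 for Hey2. What part these marker levels have in the results for the members was not tested.

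Genes whose pattern over the 6 libraries was most like a member's were found among 10002 or 10003 named genes by the root mean square difference of log2 CPM, each gene centred on its own mean. Nearest to Hey1 were Ifrd1 (0.0551), Pmepa1 (0.0844) and Gclm (0.111). Ifrd1 averaged 68.8 CPM with HMGB2 and 160 CPM with the vector, a log2 fold change of -1.22 beside -1.21 for Hey1. Genes were picked here for their likeness, so near-equal fold changes follow from the choice and are no separate result. Nearest to Jag1 were Slc35e3 (0.0154), Srebf2 (0.0158) and Eng (0.016), the last an endothelial marker. Nearest to Notch2 were Prag1 (0.024), Cdc42bpa (0.0473) and Nr6a1 (0.0476).

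Exons of other annotated genes overlap those of some members. On the opposite strand they cover 7.5% (0610009E02Rik) and 2.9% (Gm13568) of the Notch1 exons, 6% of those of Notch3 (Gm17276) and 5.6% of those of Dll4 (Gm14207), and on the same strand 5% of those of Notch2 (Gm42820). The strand setting of the counting is not given in the sources used here, so reads from these stretches are uncertain. No near-identical copy (95% identity or more over at least 100 bases) was found elsewhere for the 3 HEY genes, Jag1, Jag2 or Notch4, and Notch3 shares 100 bases at 96% identity with Gm9978.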

How the data were processed

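RNA was sequenced from 6 samples of primary neonatal mouse cardiomyocytes. Build mm10 and the tools StringTie 1.3.3b, HTSeq 0.6.1, HISAT2 2.2.1 and FastQC 0.10.1 are listed, with no roles, per the submitters' processing notes. Raw counts per Ensembl gene were deposited by the authors for all samples, 1 column each, and FPKM values deposited by the authors beside them divide the same counts by the summed exon length and the library total. Columns were matched to samples by group abbreviation and replicate number, and no column of per-sample values was left out.

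Genes were filtered with filterByExpr (minimum count 10, minimum total 15), scaled by TMM and tested with edgeR 4.0.16 (robust quasi-likelihood fit, R 4.3.3), Benjamini-Hochberg adjusted over 15429 genes. SE was derived from the fold change and the F statistic. CPM uses the TMM-scaled library sizes. No pair of libraries agreed within sampling noise (chi-square per degree of freedom at least 1.995). Alternatives were RLE scaling, DESeq2 1.42.0, other filters, limma 3.58.1 on log2 FPKM with 0.1 or 1 added (mean FPKM of at least 0.1), left-out libraries, a term for vector 1 and HMGB2 3, and a replicate block.

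The members and the gene lists were chosen with earlier results of these data known. Named genes are the members, Hmgb2, up to 4 called genes of each list by smallest p (or the 2 most abundant where fewer than 2 passed), the 2 most abundant of each marker list, and the 3 genes nearest to 1 member of each role, with a mean log2 CPM of at least 3. Numbl, Rfng, Rbpj, Epn2, Ephb4, Psen2, Adam17, Dlk2, Hes1, Hes5, Nrarp, Tbx2, Cytl1, Cnn1, Kcnj8 and Tagln fall outside this rule and were named after their values were seen. Positions are from GENCODE M21 (GRCm38) through the Ensembl identifier, since those in the tables differ from that build. Promoters are from RefSeq.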

Additional observations from a re-analysis of the deposited data

How the results depend on the processing

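Hey1 stayed past the threshold in all 15 alternatives, with log2 fold changes between -1.37 and -0.70. No member changed sign in any of the 15. Notch2 and Jag1 passed in 7 of 15, Heyl in 5, Notch4 in 4, Notch3 in 3 and Notch1 in 2, and Jag2, Dll4 and Hey2 in 0. The number of members lower was 4, and 1 to 5 with 1 library left out, 7 with the term for vector 1 and HMGB2 3, 1 with the replicate block, and 1 with limma on log2(FPKM + 0.1) as on log2(FPKM + 1). Of the other pathway genes, 5 to 11 were lower with 1 library left out, 18 with the term, 5 with the replicate block and 6 with either limma fit. The number higher was 7 without both libraries and 9 with the term. Over all genes, 3701 were higher and 3549 lower with the term, 2986 lower without both libraries, and 866 to 1960 lower with 1 library left out. With limma, 990 (0.1 added) and 962 (1 added) were lower. The replicate block left 1459 higher and 754 lower. Same-numbered samples did not all deviate together (correlations across genes of -0.443, 0.326 and -0.501 for numbers 1, 2 and 3). Not every sample correlated best with its own number. The highest correlation was between HMGB2 3 and vector 1 (0.656), the libraries set apart by the second component. Because that difference weighs on all these correlations, they cannot settle whether the numbers pair the samples. The cause of these shifts was not tested.

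HEY genes had 37 to 107 counts per library, which limits how small a change can be seen for Hey2 and Heyl. With 3 samples a group, an exact permutation test of 1 gene or ratio cannot go below 0.1.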
